A study of Arabidopsis thaliana with 54 samples.

Results

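The transcripts described here are those of the Arabidopsis thaliana mitochondrial genome, taken as every row of the gene count matrix whose identifier begins with ATMG. There were 152 such identifiers among 32833 gene identifiers. They were measured by RNA-seq in Col-0 seedlings that all grew for 10 days in 12 h light and 12 h dark before 2 days in SD (short day, with 8 h light and 16 h dark), EQ (equinox, with 12 h light and 12 h dark) or LD (long day, with 16 h light and 8 h dark). No mutant or chemical treatment was used, and the groups differed only in photoperiod and in the time of harvest. Whole seedlings, labelled as 12 days old, were collected at ZT00, ZT04, ZT08, ZT12, ZT16 and ZT20, where ZT counts hours after lights on, giving 18 groups of 3 libraries (A, B and C) and 54 libraries in all. Each library pooled the seedlings of 1 plate, so p-values measure the spread between plates.

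The mitochondrial genome of plants encodes part of the respiratory chain, part of the ATP synthase, some ribosomal proteins and the mitochondrial ribosomal RNAs, while most mitochondrial proteins are encoded in the nucleus. Its genes are transcribed inside the organelle by phage-type RNA polymerases, and a poly(A) tail on a plant mitochondrial RNA usually marks it for decay rather than for translation. A large piece of the mitochondrial genome has also been copied into chromosome 2 near the centromere in Col-0. The libraries were selected with oligo-dT before sequencing, so a lower value can stand for fewer cells of a type, less RNA per cell or a smaller polyadenylated share, and these cannot be told apart here.

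Copies on chromosome 2 matter for reading the members, because many of them are near-identical. The RefSeq notes for the TAIR10.1 assembly paired 53 of the 152 members with nuclear genes, in 55 pairs, and each nuclear gene was matched to the RefSeq mitochondrial genome. The lowest identity of a match was 99.029%, and 28 pairs had no difference at all. Of the 63296 windows of 150 bases in these matches, 92.6% were the same in both genomes of that assembly. A single read that fills such a window has no base there that separates the copies. The second read of a pair was not considered, and the mitochondrial sequence that the authors aligned to was not compared. The 4 members that passed an edgeR test and have a nuclear copy are shown here, to let a reader see how little separates them. AT2G07724, the copy paired with ATMG00200, differed from its best mitochondrial match at 1 base in 654. AT2G07672, the copy paired with ATMG01050, differed at 1 base of a match with 99.924% identity. Each base is given in capitals in the stretch below. A mitochondrial stretch labelled with an ATMG identifier is the best match of the paired nuclear gene. Coordinates of the identifiers themselves were not at hand, so whether the stretch lies in that member was not tested. All sequences run 5′ to 3′ on the strand given, and the letters come from RefSeq TAIR10.1, whose mitochondrial sequence is not the one of the TAIR10 release that the authors aligned to.
ATMG00200 (MT:187066-187094, + strand): cgccaacgaacgaaCgaaatgcttgaatc
AT2G07724 (chr2:3446627-3446655, - strand): cgccaacgaacgaaTgaaatgcttgaatc
ATMG01050 (MT:277016-277044, + strand): aatgagctgccattGtgaaccgctaccat
AT2G07672 (chr2:3257911-3257939, + strand): aatgagctgccattAtgaaccgctaccat
Both differing bases lie in the coding part of the nuclear gene.

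The RefSeq notes name ATMG00610 a putative membrane lipoprotein, and its paired copy AT2G07719 matched the mitochondrial genome over 1520 bases with 100% identity. ATMG00370 is named a Ycf1 protein, and its paired copy AT2G07739 matched over 888 bases with 100% identity. The first 90 bases of the coding part are shown for each nuclear gene, with the first codon in capitals. The same letters stand in the mitochondrial genome at MT:200226-200315 on the + strand and at MT:43125-43214 on the - strand.
ATMG00610 and AT2G07719 (chr2:3433406-3433495, - strand): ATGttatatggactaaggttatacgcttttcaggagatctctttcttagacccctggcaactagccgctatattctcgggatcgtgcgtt
ATMG00370 and AT2G07739 (chr2:3496021-3496110, - strand): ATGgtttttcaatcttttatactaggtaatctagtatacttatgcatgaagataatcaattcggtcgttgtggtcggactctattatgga
The small ribosomal RNA is shown because no copy of it of comparable length was found in the TAIR10.1 sequence of chromosome 2. Whether a copy lies on another chromosome or in sequence missing from that assembly was not tested. A blastn search of the RefSeq gene rrn18 (MT:126289-128223, - strand, 1935 bases) against that chromosome gave 3 matches, of 73, 79 and 115 bases at 97.260%, 93.671% and 76.522% identity. Its first 90 bases are given.
rrn18 5′ end (MT:128134-128223, - strand): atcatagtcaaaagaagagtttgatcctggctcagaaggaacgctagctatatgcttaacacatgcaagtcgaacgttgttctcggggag

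Counts were concentrated in very few identifiers. Libraries held 2430049 to 4124570 counts on genes, of which the 152 members took 0.198% ± 0.0623 (SD, n = 54), with a lowest share of 0.0678% and a highest of 0.327%. ATMG00030, which the study names ORF107A, an open reading frame, held 79.9% of the mitochondrial counts, averaging 5258 counts in a library with a range of 1401 to 9945. ATMG01390 (RRN18, the small ribosomal RNA of the mitochondrial ribosome) had a mean of 455.5 counts, and ATMG00020 had 187.3. No name is given to ATMG00020 in the sources used here, while the planned role lists had placed it among the ribosomal RNAs. These 3 identifiers took 89.7% of the mitochondrial counts. ATMG00110, listed by the study under iron coordination entity transport, followed with a mean of 94.2 counts. No other member had a mean above 34.1 counts.

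Most members were near the limit of detection. A mean under 10 counts was found for 135 of the 152, and a mean under 1 count for 47. In at least 27 of the 54 libraries 52 members had 0 counts, and only 20 had a count in every library. After the filter on low counts 49 members (32.2%) were tested in the fit of all 54 libraries, against 43.0% of all gene identifiers. The 49 held 97.8% of the mitochondrial counts. The highest mean among the 103 members left out was 4.61 counts, and the highest single count was 19.

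**Figure D1:**
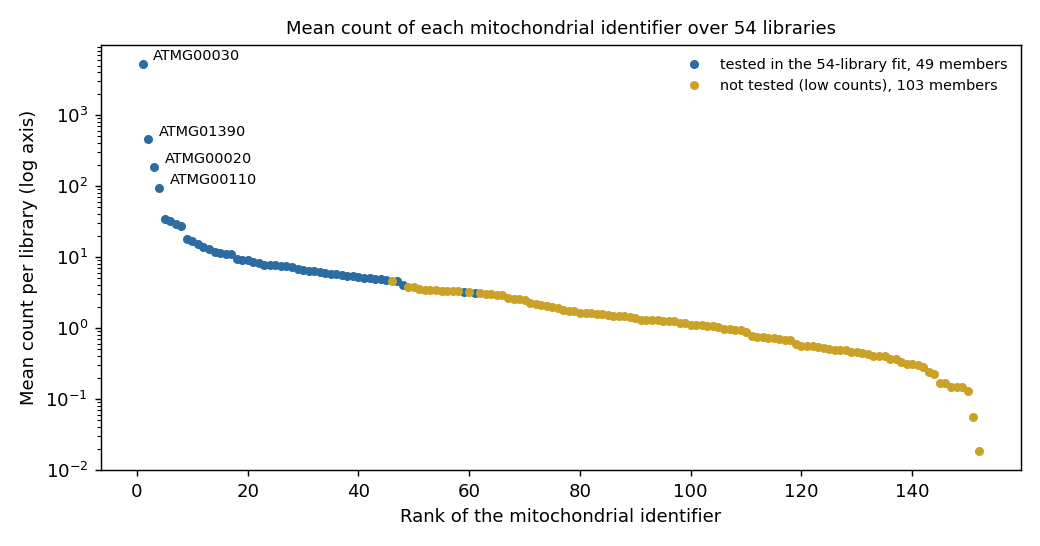
Each point is 1 of the 152 mitochondrial identifiers, ordered by rank on the horizontal axis, with its mean count per library over 54 libraries on a log vertical axis. ATMG00030 lies at 5258 counts, more than 10 times above ATMG01390 at 455.5, and the 103 members not tested (yellow) make up nearly all of the low end of the curve.

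The proteins of respiration and translation that the RefSeq notes name among the members with a nuclear copy had few counts. There are 19 of them. By name 3 belong to complex I (NADH dehydrogenase subunits), 1 to complex III (apocytochrome b), 2 to complex IV (cytochrome c oxidase), 5 to the ATP synthase, 3 to cytochrome c maturation and 4 to the mitochondrial ribosome. The last, ATMG00590, is named a cytochrome b/b6 protein, but its nuclear copy matched the stretch that RefSeq annotates as nad4, so it was put in no complex. Their mean counts ran from 0.315 for ATMG01090 (ATP synthase 9) to 12.9 for ATMG00180 (a cytochrome c biogenesis protein). Only 8 of the 19 were tested and 0 passed any test of the 54-library fit under edgeR's quasi-likelihood test, where 3 of their 64 tests had an unadjusted p under 0.05. DESeq2 called 1 of the 19, ATMG00180, for SD minus EQ at a log2 change of -0.63 (adjusted p 0.0238). Members without a nuclear copy are outside this list. So is ATMG00560, which the notes name only a nucleic acid-binding protein, while its nuclear copy matched the stretch annotated as rpl2. It had a mean of 4.59 counts and was not called by edgeR for SD minus LD or SD minus EQ. The planned role lists had placed ATMG00110 under cytochrome c maturation and ATMG01170 under the ATP synthase. Both were called by edgeR for SD minus LD, with the values given below. Levels are given for a few of the 19. ATMG01280, named a cytochrome c oxidase subunit II-like protein, had a mean of 11.6 counts. ATMG00410 (ATPase subunit 6-1) had 7.76, and ATMG00290 (ribosomal protein S4) had 6.28. ATMG01360, which the study lists under the electron transport chain, is stronger than any of them, with a mean of 26.98 counts and 0 libraries without a count.

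The question these comparisons address is whether the level of these transcripts depends on day length. Averaged over the 6 time points, 7 of the 49 tested members differed between SD and LD at an adjusted p under 0.05 (edgeR quasi-likelihood test, Benjamini-Hochberg over all genes tested). Of all 14115 genes tested 12.0% were called in that contrast, with 5.78% higher and 6.23% lower, and among the members 3 were higher in SD and 4 lower. The balance depended on the time points, with 4 higher and 1 lower without ZT04 (4 of these 5 among the 7) and 1 higher and 4 lower without ZT16 or without ZT20. The median log2 change of the 49 was -0.02, against -0.06 for all genes tested. DESeq2 called 8 of 45 members with an adjusted p, where it called 21.2% of all genes, and these were the same 7 and ATMG00860 at -0.79 (adjusted p 0.0254). In the same contrast 9 of 98 chloroplast identifiers were called, 8 of them lower in SD, and their median log2 change was -0.25.

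ATMG00030 (ORF107A) was lower in SD than in both other photoperiods. It had 493 to 1547 CPM (counts scaled to library size, median 1180) in the 18 SD libraries, 745 to 3261 CPM (median 1743) in the 18 EQ libraries and 1014 to 3115 CPM (median 1750) in the 18 LD libraries. All 18 SD libraries lay below the LD median, and 6 lay below the lowest LD library, so the groups overlapped. The log2 change was -0.76 ± 0.13 (SE) for SD minus LD, with an adjusted p of 3.90e-05, and -0.70 ± 0.13 for SD minus EQ, with an adjusted p of 0.000612. The SD mean was the lower one at 6 of 6 time points in both contrasts, and at 3 of the 6 the libraries did not overlap.

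At ZT04 and ZT08 the SD libraries stood apart from the others. At ZT04 ATMG00030 had 1164, 493 and 538 CPM in SD, against 3115, 2937 and 1662 CPM in LD. At ZT08 it had 1338, 1242 and 1527 CPM in SD, 3261, 2524 and 2930 CPM in EQ and 2473, 2127 and 2378 CPM in LD. At ZT04 EQ had 1534, 1916 and 2772 CPM, so that at both times every SD library lay below every EQ and LD library. At ZT20 SD had 1244, 1088 and 1083 CPM, against 1835, 1169 and 1314 CPM in LD, and the groups overlapped. In fits of the 6 libraries of a single time point, the change at ZT08 was -0.77 ± 0.11 for SD minus LD, with an adjusted p of 0.0607 by edgeR, which called ATMG00030 at no single time. DESeq2 called it for SD minus LD at ZT04 (-1.82, adjusted p 0.000671), ZT08 (-0.76, adjusted p 6.15e-08) and ZT16 (-0.41, adjusted p 0.0357), and for SD minus EQ at ZT04 (-1.51, adjusted p 0.00651) and ZT08 (-1.14, adjusted p 1.01e-10).

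ATMG01390 (RRN18) and ATMG00020 were lower in SD as well, by less. RRN18 had 61.1 to 162 CPM (median 111) in SD, 86.7 to 269 CPM (median 146) in EQ and 97.5 to 206 CPM (median 143) in LD. Its log2 change was -0.38 ± 0.10 for SD minus LD (adjusted p 0.00694) and -0.39 ± 0.10 for SD minus EQ (adjusted p 0.0130). ATMG00020 had 15.8 to 67.0 CPM (median 45.2) in SD, 27.8 to 139 CPM (median 61.3) in EQ and 30.1 to 107 CPM (median 57.3) in LD. Its log2 change was -0.56 ± 0.17 for SD minus LD (adjusted p 0.0189) and -0.63 ± 0.17 for SD minus EQ (adjusted p 0.0170). The SD mean of RRN18 was lower than the LD mean at 5 of 6 times, and that of ATMG00020 at 6 of 6. The ranges overlap widely, with 5 of 18 SD libraries below the lowest LD library for each of them. Without ZT04 neither passed the threshold for SD minus LD, at -0.25 (adjusted p 0.1495) for RRN18 and -0.32 (adjusted p 0.315) for ATMG00020. Both calls were also lost without replicate B (-0.34 and -0.54) and without replicate C (-0.39 and -0.63).

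**Figure D2:**
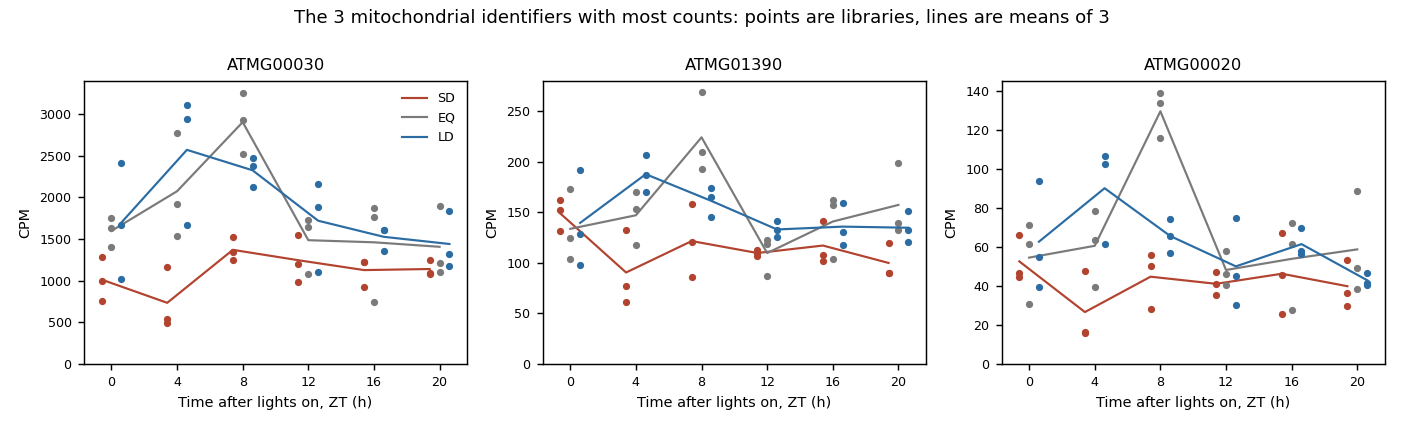
CPM (vertical axes, starting at 0) against time after lights on in hours (horizontal axes) for ATMG00030, ATMG01390 and ATMG00020, with each library as a point and the mean of 3 as a line, in SD (red), EQ (grey) and LD (blue). The SD line of ATMG00030 lies below the other lines at all 6 times, and the EQ line of all 3 identifiers is highest at ZT08.

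The share of all gene counts on the 152 members followed ATMG00030. It was 0.148% ± 0.0365 in SD seedlings, 0.224% ± 0.0594 in EQ seedlings and 0.223% ± 0.0567 in LD seedlings (SD, n = 18 each). The lowest share of any group was 0.0931% ± 0.0437 in SD at ZT04 and the highest was 0.303% ± 0.0172 in EQ at ZT08 (n = 3 each). With ATMG00030 left out the shares came to 0.0368% ± 0.00634 (0.0216% to 0.0473%) in SD seedlings, 0.0438% ± 0.00939 (0.0308% to 0.0682%) in EQ seedlings and 0.0397% ± 0.00772 (0.0260% to 0.0552%) in LD seedlings, and these ranges overlapped. ATMG00030 made up 74.3% ± 4.15 of the mitochondrial counts in SD seedlings, 79.9% ± 3.20 in EQ seedlings and 81.7% ± 2.96 in LD seedlings. The share is a sum over the members and was not tested.

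Other counts moved with these groups. The chloroplast share of the counts was 0.467% ± 0.0899 in SD seedlings, 0.636% ± 0.154 in EQ seedlings and 0.626% ± 0.0909 in LD seedlings, and it too was lowest in SD at ZT04, at 0.328% ± 0.0999. Of 4 shoot markers and 3 root markers, 6 were tested. RBCS1A and RCA (carbon fixation in leaves) were lower in SD than in LD, by log2 changes of -0.27 ± 0.08 (adjusted p 0.0202) and -0.30 ± 0.08 (adjusted p 0.00532), and so was the root gene PYK10, at -0.39 ± 0.07 (adjusted p 0.000170). CAB1 and CAB3 (light-harvesting proteins) had values of 0.23 and 0.23 that did not pass, RCI3 had 0 counts in 39 libraries and TIP2-3 had 0 in 42. An opposite-strand gene overlaps PYK10 over 138 bases, CAB1 over 108 and RCA over 3. The doubt about the stranded setting given below applies to these markers too. The part of organ composition and of the chloroplast shift in the mitochondrial result was not tested.

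Of the 10 most abundant members 3 passed no test by edgeR. ATMG00810 had 0 to 17.96 CPM (median 7.53) in SD, 0 to 16.7 CPM (median 6.95) in EQ and 3.66 to 30.7 CPM (median 9.38) in LD. ATMG01360 had 1.90 to 10.96 CPM (median 6.71) in SD, 3.76 to 37.6 CPM (median 7.73) in EQ and 2.13 to 18.6 CPM (median 7.94) in LD. ATMG00400 had 0.769 to 9.71 CPM (median 3.17) in SD, 0 to 18.2 CPM (median 4.99) in EQ and 1.21 to 14.1 CPM (median 4.801) in LD. All 3 ranges overlapped between photoperiods. The SD mean of ATMG00400 was below the EQ mean at 6 of 6 times, with no overlap at 3 of them, and DESeq2 called SD minus EQ at -0.78 (adjusted p 0.0367).

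ATMG00200, an unknown protein paired with the copy on chromosome 2 shown above, was the fourth member lower in SD than in LD. It had 1.66 to 13.0 CPM (median 6.86) in SD and 4.57 to 25.7 CPM (median 11.2) in LD, and the log2 change was -0.78 ± 0.24 with an adjusted p of 0.0254. The call was lost without ZT04 (-0.43, adjusted p 0.378), without ZT00 (adjusted p 0.0503) and without any 1 of the replicates, where it ran from -0.99 to -0.65. SD minus EQ gave -0.76 ± 0.24 and an adjusted p of 0.0613 by edgeR, and was called by DESeq2 at -0.77 (adjusted p 0.0119).

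ATMG00110 went the other way and had the lowest adjusted p of the 49 members for SD minus LD. It had 17.9 to 58.7 CPM (median 41.2) in SD, 8.61 to 46.1 CPM (median 31.0) in EQ and 9.32 to 41.7 CPM (median 18.2) in LD. Of the 18 SD libraries 8 lay above every LD library and 17 above the LD median, and the SD mean was the higher one at 5 of 6 times, ZT04 being the exception with 23.6 CPM in SD and 31.4 CPM in LD. The log2 change for SD minus LD was 0.86 ± 0.15, with an adjusted p of 3.34e-05. For SD minus EQ it was 0.39 ± 0.14 (adjusted p 0.127) and for EQ minus LD 0.47 ± 0.15 (adjusted p 0.115), so the EQ mean lay between the others and neither difference passed the threshold. DESeq2 called EQ minus LD, at 0.48 with an adjusted p of 0.0168.

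The other members higher in SD had fewer counts. ATMG01170, which has no name in the sources used here, had 1.63 to 10.3 CPM (median 5.95) in SD and 1.37 to 5.999 CPM (median 2.93) in LD, a log2 change of 0.77 ± 0.23 (adjusted p 0.0198). ATMG01050, an unknown protein with a copy on chromosome 2, had 0.769 to 8.31 CPM (median 2.64) in SD and 0.527 to 3.05 CPM (median 1.39) in LD, a log2 change of 1.01 ± 0.34 (adjusted p 0.0475). The groups overlapped for both. ATMG01170 lost the threshold without ZT08, ZT16 or ZT20 (log2 changes of 0.62, 0.76 and 0.70), and ATMG01050 without ZT00, ZT12, ZT16 or ZT20 (0.84, 1.01, 0.98 and 0.99). Each was also lost without any 1 of the replicates, with values of 0.71 to 0.87 for ATMG01170 and 0.83 to 1.15 for ATMG01050.

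Against EQ, 3 of the 49 members were lower in SD and 0 were higher, where 4.99% of all genes were called (2.81% higher and 2.18% lower). DESeq2 called 6 of 17 members with an adjusted p, all lower, where it called 16.3% of all genes. The 3 called by edgeR were ATMG00030, ATMG01390 and ATMG00020, with the values given above. The calls for ATMG01390 and ATMG00020 were lost without ZT04 (-0.33 and -0.52) and without ZT08 (-0.29 and -0.45), that for ATMG01390 also without ZT20 (-0.34), and without ZT04 or without ZT08 1 member was higher and 1 lower. Without replicate C no member passed, at -0.62 for ATMG00030. Without replicate B only ATMG00030 of the 3 remained. SD minus EQ and SD minus LD share the SD libraries, so the lists are not independent. Between EQ and LD 0 of 49 members were called by edgeR, where 1.35% of all genes were, while 2 had an unadjusted p under 0.05. DESeq2 called 1 of 10 members with an adjusted p, ATMG00110, where it called 8.56% of all genes.

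**Figure D3:**
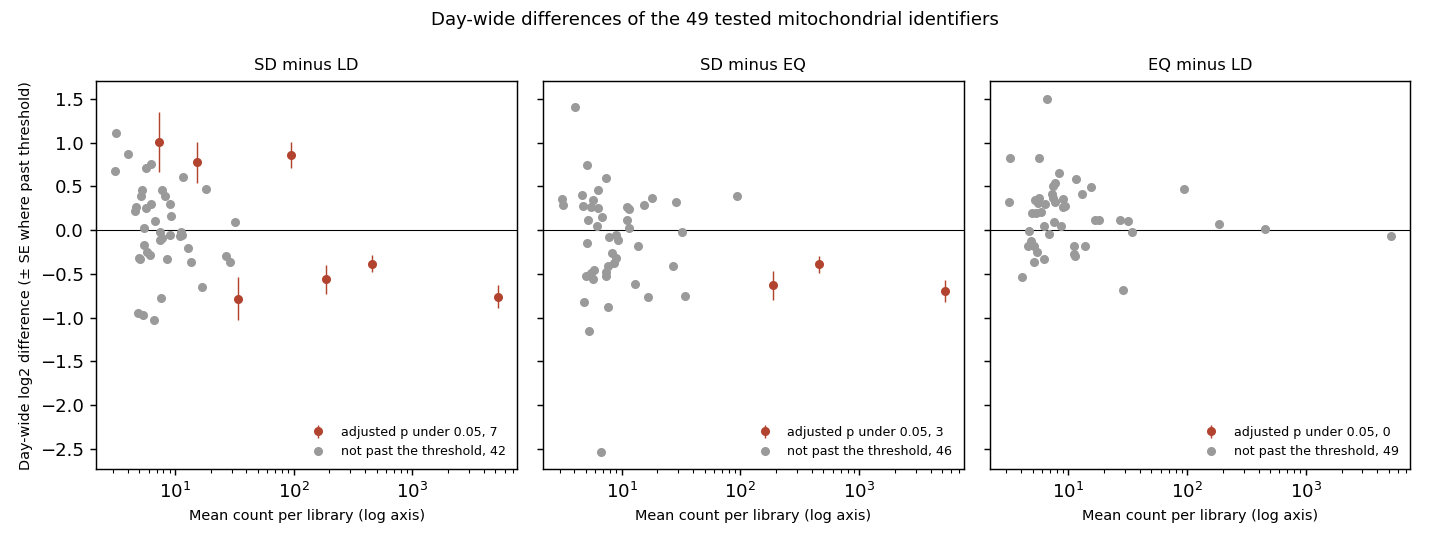
Day-wide log2 differences (vertical axis) of the 49 tested mitochondrial identifiers against their mean count per library (log horizontal axis) for SD minus LD, SD minus EQ and EQ minus LD, with members past the adjusted p of 0.05 in red with their SE. The 7, 3 and 0 red points include ATMG00030 at the right edge, at -0.76 and -0.70.

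In the 18 comparisons of 2 photoperiods at 1 time, 13 to 28 members had enough counts to be tested, and 349 member tests were made. At ZT04 the median log2 change of the 20 members tested for SD minus LD was -0.63, against -0.02 for all genes tested, and 2 of the 20 were positive. The shift was not particular to the members. The 81 chloroplast identifiers tested had a median of -0.63 as well, with 17 positive. The 22 tested genes in the chromosome 2 region that holds most of the nuclear copies had a median of -0.89, with 2 positive. Copies in that region can share reads with the members, so its values are not a separate measurement. The only member called at a single time was ATMG00110 at ZT12, which had 33.2, 43.2 and 58.7 CPM in SD and 8.61, 17.0 and 15.8 CPM in EQ. Every SD library lay above every EQ library, and the log2 change was 1.73 ± 0.35 with an adjusted p of 0.0222, in a comparison where 17.9% of all 8299 genes were called. The call was lost without replicate A (1.65, adjusted p 0.0536), B (1.96, adjusted p 0.118) or C (1.60, adjusted p 0.123). The other 17 comparisons had 0 members called by edgeR. For SD minus LD 0.143%, 0.0739%, 0.583%, 13.0%, 13.7% and 3.08% of all genes were called from ZT00 to ZT20. For SD minus EQ it was 0.309%, 0.0380%, 0.0964%, 17.9%, 0.0609% and 0.217%, and for EQ minus LD 0.186%, 0.0624%, 0.162%, 0.0780%, 14.2% and 0.418%. An unadjusted p under 0.05 was reached by 35 of the 349 member tests (10.0%), against 12.5% of the tests of all genes, and DESeq2 called 14 of the 276 member tests to which it gave an adjusted p, where it called 8.29% of all such gene tests.

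Time of day was tested in each photoperiod on its own. In SD 1 of the 49 members varied with time, where 17.4% of all genes did, in EQ 3 members did, where 15.0% of all genes did, and in LD 3 members did, where 13.3% of all genes did. These members were ATMG00110 in SD (adjusted p 0.0490), ATMG01390, ATMG00110 and ATMG00020 in EQ (0.0334, 0.0348 and 0.0444) and ATMG00050, ATMG00370 and ATMG00610 in LD (0.0387, 0.0389 and 0.0431). All these adjusted p values lay close to the threshold, and leaving out replicate C ended every one of the 7 calls. A replicate block ended the calls for ATMG00110 in SD (adjusted p 0.0505) and ATMG00610 in LD (0.0594). That for ATMG00110 in SD was also lost with RLE size factors (0.0617), with organelle genes out of the scaling (0.0521) and without any 1 replicate, and every one of the 7 was lost with no filter on low counts.

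In EQ ATMG01390 (RRN18) and ATMG00020 peaked at ZT08, together with ATMG00030. ATMG00020 had 116, 134 and 139 CPM at ZT08 in EQ, above all other libraries of the series, and 57.6, 46.2 and 40.3 CPM at ZT12. ATMG01390 had 193, 210 and 269 CPM at ZT08 in EQ and 123, 119 and 86.7 CPM at ZT12. Both were at their EQ highest group mean at ZT08, and ATMG00030 too, whose test over time in EQ gave an adjusted p of 0.0604. The chloroplast share also had its highest group mean in EQ at ZT08, at 0.872% ± 0.244, and the part of that shift in the mitochondrial values was not tested.

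ATMG00110 was the only member called for time in 2 photoperiods, SD and EQ. In SD it had 49.3, 41.7 and 41.0 CPM at ZT00, 22.2, 23.6 and 25.0 CPM at ZT04 and 20.8, 17.9 and 26.9 CPM at ZT08. It then had 33.2, 43.2 and 58.7 CPM at ZT12, 48.3, 38.2 and 48.7 CPM at ZT16 and 45.6, 41.5 and 42.9 CPM at ZT20. All 6 SD libraries harvested in the light (17.9 to 26.9 CPM) thus lay below all 12 harvested in the dark (33.2 to 58.7 CPM). In EQ the group means were 39.8 CPM at ZT00, 33.2 at ZT04, 26.3 at ZT08, 13.8 at ZT12, 25.0 at ZT16 and 33.0 at ZT20. The lowest EQ mean was therefore at ZT12, which the labels count as light in EQ. In LD the means were 23.6 CPM at ZT00, 31.4 at ZT04, 14.4 at ZT08, 14.8 at ZT12, 23.6 at ZT16 and 15.2 at ZT20, with light and dark libraries overlapping throughout.

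A test of whether the daily course differed between photoperiods called ATMG00110 alone among the 49 members, with an adjusted p of 0.0213, where 9.42% of all genes were called. Without replicate A its adjusted p was 0.563 and without replicate C it was 0.560.

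**Figure D4:**
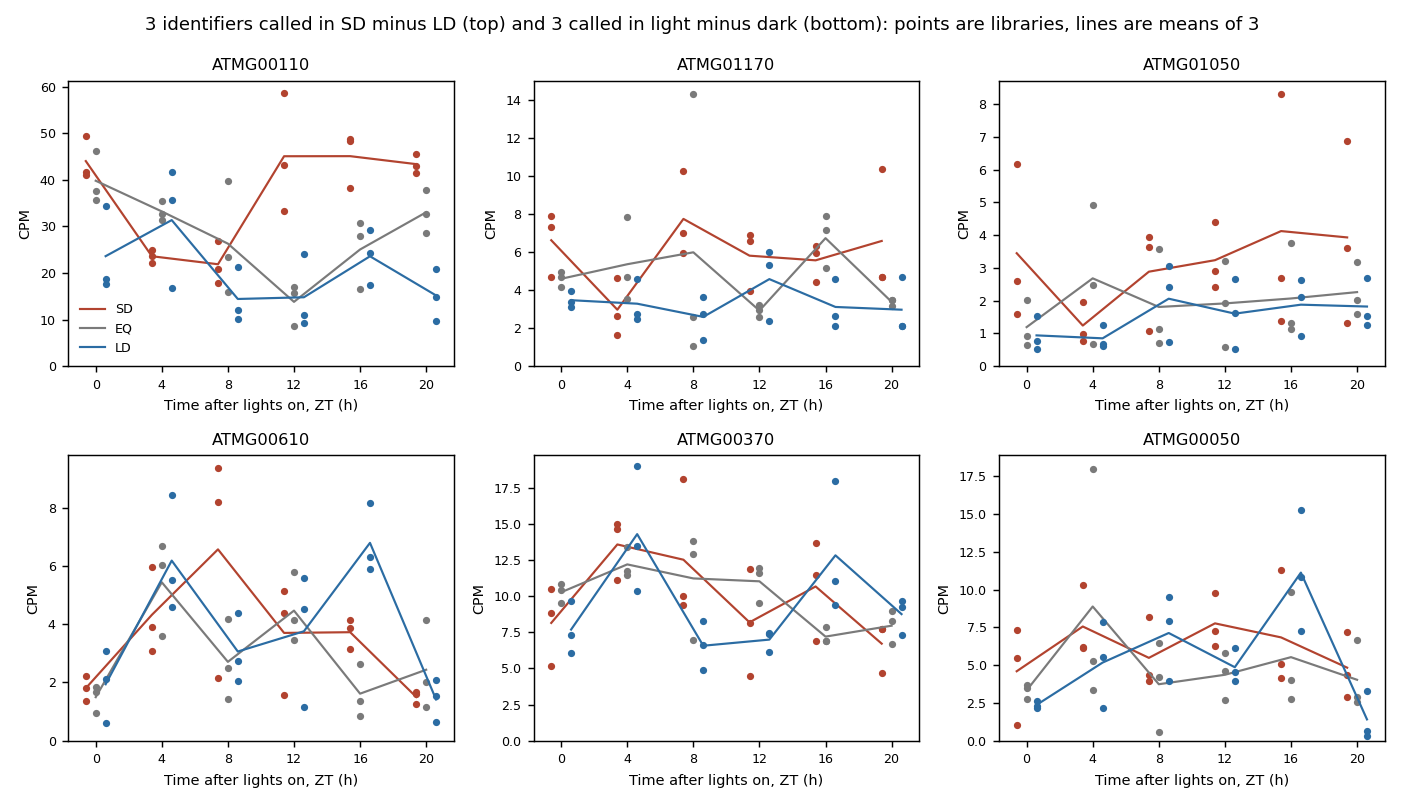
CPM (vertical axes, starting at 0) against time after lights on in hours (horizontal axes) for 6 identifiers, with libraries as points and means of 3 as lines, in SD (red), EQ (grey) and LD (blue). The top row holds the 3 members higher in SD than in LD, and in the panel of ATMG00110 the 12 SD libraries from the dark (33.2 to 58.7 CPM) stand above the 6 from the light (17.9 to 26.9 CPM).

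Light at harvest, as the labels give it, was compared with dark within each photoperiod and averaged over the 3. Of the 49 members 6 were called, 5 higher in the light and 1 lower, where 27.5% of all genes were called (13.8% higher and 13.7% lower). The median log2 change of the 49 members was 0.15, with 32 positive, against 0.03 for all genes tested. The 98 chloroplast identifiers tested had the same median of 0.15, with 67 positive. The 39 tested genes in the chromosome 2 region that holds most of the nuclear copies had 0.18, with 28 positive. They include copies that can share reads with the members, so this is not a separate measurement. Light state and time of day are partly linked, since ZT04 and ZT08 are light and ZT00 and ZT20 dark in every photoperiod. Only ZT12 (dark in SD) and ZT16 (light in LD) differ in light state between photoperiods, and there light state and photoperiod cannot be told apart.

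ATMG00610, the putative membrane lipoprotein, had the largest of these changes. It had 2.16 to 9.37 CPM (median 4.95) in the light and 1.25 to 5.14 CPM (median 2.02) in the dark in SD, 1.44 to 6.70 CPM (median 4.15) against 0.859 to 4.14 CPM (median 1.68) in EQ, and 1.15 to 8.46 CPM (median 5.06) against 0.610 to 3.09 CPM (median 1.81) in LD. The ranges overlapped in each photoperiod, while the median was higher in the light in all 3. The log2 change was 1.24 ± 0.22 with an adjusted p of 1.37e-05. In LD its group means were 1.94 CPM at ZT00, 6.19 at ZT04, 3.06 at ZT08, 3.76 at ZT12, 6.80 at ZT16 and 1.41 at ZT20, so that the course had 2 high points. At ZT16 it had 3.86, 3.17 and 4.16 CPM in SD seedlings and 1.36, 0.859 and 2.62 CPM in EQ seedlings, both in the dark, against 8.19, 6.32 and 5.89 CPM in LD seedlings, in the light. Every LD library lay above every SD and EQ library. The edgeR test of EQ minus LD at that time gave -2.00 ± 0.62 with an adjusted p of 0.0958, and DESeq2 gave -2.06 with 0.0277. The light minus dark call held in every alternative in which it was tested, and DESeq2 was not run for this contrast.

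The other members higher in the light changed less. The median of ATMG00820 was 3.94 CPM in the light and 3.24 CPM in the dark in SD, 3.56 and 2.02 CPM in EQ, and 3.91 and 2.25 CPM in LD, a log2 change of 0.67 ± 0.18 (adjusted p 0.00330). The median of ATMG00370, the Ycf1 protein, was 12.9 CPM in the light and 7.96 CPM in the dark in SD, 11.7 and 8.27 CPM in EQ, and 8.82 and 8.30 CPM in LD, a log2 change of 0.44 ± 0.12 (adjusted p 0.00288). ATMG00690 and ATMG00050, neither named in the sources used here, changed by 0.78 ± 0.27 (adjusted p 0.0275) and 0.77 ± 0.25 (adjusted p 0.0168). For all 4 the light and dark libraries overlapped. The median of ATMG00050 was 6.18 CPM in the light and 5.86 CPM in the dark in SD, 4.60 and 3.50 CPM in EQ, and 6.70 and 2.23 CPM in LD, so the gap was widest in LD.

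ATMG00110 was the member lower in the light, by a log2 change of -0.46 ± 0.12 (adjusted p 0.00364). Its mean was 22.7 CPM in the light and 44.4 CPM in the dark in SD, 24.4 and 32.6 CPM in EQ, and 21.0 and 19.4 CPM in LD, so the lower level in the light was not seen in LD, where the light mean was the higher one. Leaving out ZT00 or ZT04 left 3 of the 6 calls each, while leaving out ZT12 gave 9 calls, all higher in the light, 5 of them among the 6. Without ZT00 the calls for ATMG00110 (-0.30), ATMG00690 (0.58) and ATMG00050 (0.79, adjusted p 0.0501) were lost, and without ZT04 those for ATMG00370 (0.34), ATMG00690 (0.57) and ATMG00050 (0.60). ATMG00110 was also lost without ZT12 (-0.29) and without replicate A (-0.44), ATMG00690 without ZT16 (0.73) and without any 1 replicate (0.68 to 0.94), and ATMG00050 without ZT20 (0.60) and without replicate A (0.70) or B (0.77). ATMG00370 was lost without replicate C (0.32), and ATMG00820 without replicate B (0.68) or C (0.55).

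The nuclear copies on chromosome 2 are counted as genes of their own, and most took more counts than their mitochondrial partners. A copy was in the table for 46 of the 55 pairs, its mean was higher than that of the member in 37 of them, and the median ratio of copy to member was 2.16. The 53 members with a pair summed to 255 mean counts, which is 3.87% of the mitochondrial counts, and the copies to 646. These counts are not corrected for gene length, and the lengths of the mitochondrial identifiers were not at hand. How reads were divided between near-identical copies was not tested.

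The 4 members called by edgeR that have a copy had changes of the same sign in that copy. For light minus dark, AT2G07719 gave 1.17 (adjusted p 3.65e-07) where ATMG00610 gave 1.24, and AT2G07739 gave 0.54 (adjusted p 5.46e-05) where ATMG00370 gave 0.44. For SD minus LD, AT2G07724 gave -0.87 (adjusted p 0.0109) where ATMG00200 gave -0.78, and AT2G07672 gave 0.98 (adjusted p 0.00180) where ATMG01050 gave 1.01. For SD minus EQ, which DESeq2 alone called for 2 further members with a copy, AT2G07815 gave -0.79 (adjusted p 0.0219) where ATMG00180 gave -0.62, and AT2G07835 gave -0.65 (adjusted p 0.0598) where ATMG00400 gave -0.76, all by edgeR. Members and copies can share reads, so these are not separate measurements, and whether the RNA came from the organelle or from chromosome 2 cannot be told apart. ATMG00030, ATMG01390, ATMG00020 and ATMG00110 have no copy among the 55 pairs. The notes behind the pairs name only protein matches and sources of pseudogenes. Of these members only ATMG01390, as rrn18, was searched against chromosome 2. Whether ATMG00030, ATMG00020 and ATMG00110 have a copy there was not tested.

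**Figure D5:**
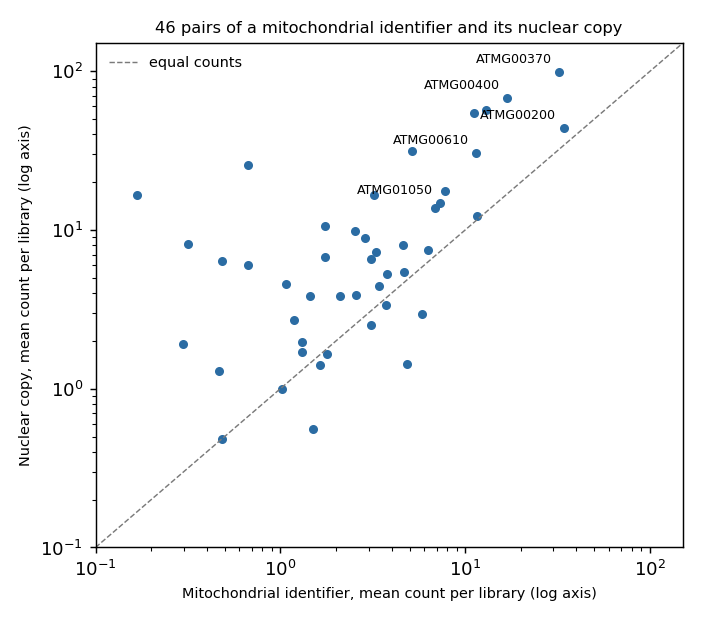
Mean count per library of the mitochondrial identifier (horizontal log axis) and of its nuclear copy on chromosome 2 (vertical log axis) for 46 pairs over 54 libraries. The dashed line marks equal counts, and 37 of the 46 points lie above it, among them ATMG00370 at 32.1 counts with its copy at 99.5.

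Nuclear genes of respiration and of mitochondrial gene expression were compared as a list of 28, of which 25 were tested. For SD minus LD 2 of the 25 were lower and 0 higher, where 12.0% of all genes were called. They were CYTC-1 (cytochrome c) at -0.33 ± 0.04 (adjusted p 2.77e-07) and CA2 (a carbonic anhydrase of complex I) at -0.14 ± 0.04 (adjusted p 0.0112). For SD minus EQ and for EQ minus LD 1 was called in each, where 4.99% and 1.35% of all genes were. For light minus dark 1 was higher and 3 lower, where 27.5% of all genes were called. Most of the list had few counts. The 3 genes with a mean of at least 100 counts all have an opposite-strand gene overlapping them in the TAIR10.1 annotation, as 9 of the 28 do, while the highest mean among the other 19 was 32.2 counts. Among them are CYTC-1 and CA2, overlapped over 484 and 1652 bases. The authors aligned with a stranded setting, and whether it fits the library kit could not be settled here, so these counts may belong to the opposite-strand neighbour and both changes are reported as uncertain. The opposite-strand neighbours of the mitochondrial identifiers were not analysed here, so the counts of ATMG00030 and the other members are reported as uncertain in this respect.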

How the data were processed

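RNA was selected with oligo-dT and sequenced as paired reads. The authors trimmed reads with Trimmomatic 0.39, aligned them with HISAT2 2.1.0 to TAIR10 with spike-in sequences, quantified them with StringTie 2.1.2 and deposited gene counts, which that tool's script derives from read coverage. These counts were used here as deposited. Libraries held 2430049 to 4124570 counts on genes, so weak members rest on few reads. Spike-in rows stayed out of library sizes and tests.

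Genes were filtered with filterByExpr at a minimum count of 10, scaled by TMM and tested with the quasi-likelihood test of edgeR 4.0.16 in R 4.3.3, with Benjamini-Hochberg adjustment over all genes tested and a threshold of 0.05. One fit of 54 libraries with 18 group means gave the contrasts over the day, the tests of time, of photoperiod by time and of light against dark, and 18 fits of 6 libraries gave single time points. CPM used the TMM-scaled library sizes of the 54-library fit, and errors of log2 changes are SE. Alternatives were other size factors, filters and replicates left out, organelle genes outside the scaling, a replicate block and DESeq2 1.42.0. DESeq2 was run only for the day-wide photoperiod contrasts and the single time points. It was not run for time of day, photoperiod by time or light against dark. Leaving out time points was added after seeing the data.

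Members named are the 10 most abundant and, per test, up to 6 called members. The role lists had assumed gene symbols, while the matrix holds bare identifiers, so roles were taken from RefSeq notes, which name members with a nuclear copy only. Nuclear copies were matched with blastn 2.17.0. Members and lists were chosen with earlier results of these data known.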

Additional observations from a re-analysis of the deposited data

Results flagged for a closer look

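ATMG00110 was singled out because its daily course differed between photoperiods, with an adjusted p of 0.0213 (edgeR quasi-likelihood F test of photoperiod by time over 54 libraries). Its CPM averaged 22.7 ± 3.17 in the light (n = 6) and 44.4 ± 6.44 in the dark (n = 12) in SD, 24.4 ± 10.8 in the light and 32.6 ± 8.24 in the dark in EQ (n = 9 each), and 21.0 ± 10.4 in the light (n = 12) and 19.4 ± 8.32 in the dark (n = 6) in LD (SD in each case). Without replicate A the adjusted p was 0.563 and without replicate C 0.560, and without a filter on low counts it was 0.0594.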

How the results depend on the processing

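Among the calls of named members that carry a log2 change, none changed sign under any alternative run. Contrasts that were not called had no such check, and the F tests have no sign. The calls for ATMG00030 and ATMG00110 in SD minus LD and for ATMG00610 in light minus dark held under every alternative in which they were tested. Counts of members called depended on the replicates. Leaving out 1 replicate gave 2 to 4 members for SD minus LD (7 with all libraries), 0 to 3 for SD minus EQ (3), 0 for time of day in SD (1), 0 to 2 for time of day in EQ (3), 0 to 1 for time of day in LD (3), 0 to 2 for photoperiod by time (1), 3 to 4 for light minus dark (6) and 0 at single time points (1). Of 25 calls of named members 13 were lost without replicate A, 17 without B and 20 without C, where fewer libraries were fitted. With no filter, 0 members were called for time in SD, EQ and LD and for photoperiod by time, and 10 of the 25 calls were lost. RLE size factors, and organelle genes left out of the scaling, each left 0 members for time in SD. DESeq2 called 6 members for SD minus EQ, 1 for EQ minus LD and 14 at single time points. Single time points gave 9 calls in 1 fit of 54 libraries and 5 at a minimum count of 30. Leaving out time points was chosen after seeing the data. Without ZT12, 1 member was called for EQ minus LD, and light minus dark had 3 calls without ZT00, 3 without ZT04 and 9 without ZT12, all 9 higher in the light, against 5 higher and 1 lower in all libraries. Without ZT04, SD minus LD had 4 members higher and 1 lower. The cause of these shifts was not tested. The mean mitochondrial share in SD was 66.4% of that in LD and 66.0% of that in EQ. Without ATMG00030 these values were 92.7% and 84.1%. Leaving out 1 replicate gave 64.1% to 68.4% and 64.4% to 68.7%. The EQ mean was 101% of the LD mean, 92.9% relative to the spike-in total and 93.3% to 106% without 1 replicate, so its direction was not stable. Depth limits the 103 members not tested, none of which had a mean above 4.61 counts.

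Over all tested genes, libraries with the same replicate letter did not deviate together (median r 0.00186, range -0.107 to 0.0803 over 459 pairs). No pairing by letter was thus seen across these genes as a whole. Pairing limited to some genes, such as the mitochondrial ones, was not tested in this way. With a replicate block the counts were 7 for SD minus LD, 3 for SD minus EQ, 0 for EQ minus LD, 0, 4 and 2 for time in SD, EQ and LD, 1 for photoperiod by time, 6 for light minus dark and 1 at single time points. The block ended the calls of time for ATMG00110 in SD (adjusted p 0.0505) and ATMG00610 in LD (0.0594).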
